A study of Citrullus lanatus with 6 samples.

Results

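Arginine is rich in nitrogen and serves plants as a store of it, and several enzymes compete for it. 5 watermelon genes were examined here, chosen by their gene IDs and annotation as the genes at the branch points of arginine use: arginine decarboxylase (ADC, ClCG11G003830), ornithine decarboxylase (ODC, ClCG08G013990), arginase (ClCG06G000480), urease (ClCG11G013850) and a putative nitric-oxide synthase (NOS-like, ClCG01G004960). They are 5 of the 19742 genes with a read count in at least 1 library. The questions were which branch holds most of the transcript in the leaf, how the 2 decarboxylases compare, and how arginase stands to urease in each plant.

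ADC removes the carboxyl group of arginine to give agmatine, from which plants make putrescine, the precursor of the polyamines spermidine and spermine. ODC makes putrescine directly from ornithine, and Arabidopsis has no recognised gene for it. Arginase splits arginine into ornithine and urea in the mitochondrion, and urease, a nickel enzyme that needs accessory proteins, turns the urea into ammonia and carbon dioxide. Animal nitric oxide synthases make nitric oxide from arginine. No enzyme of that kind is established in land plants, and the Arabidopsis protein that first carried the name was later described as a GTPase, so the label of the NOS-like gene is that of its annotation.

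Leaves of the watermelon cultivar Crimson Sweet were sampled for RNA sequencing from 3 drought plants and 3 control plants, 1 library for each plant. The drought pots were held at 35 ± 5% water content by withholding water, against 95 ± 5% in the control pots. All plants were 89 days old, and sampling took place 8 days after the drought treatment began. Both groups had the same genotype, potting medium and fertilizer, and 1 cultivar, 1 organ and 1 time point were covered.

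Library totals were 21143377 to 22351455 counts in drought plants and 17907062 to 21852732 counts in control plants. The drought libraries resembled each other more than the control libraries did, with a chi-square per degree of freedom of 41.2 to 82.1 between drought pairs and of 89.4 to 472 between control pairs. Control replicate 2 stood apart: its log2 level differed by more than 1 from the mean of the other control plants in 32.1% of the 16318 genes tested. The edgeR test called 2185 of the 16318 genes at an adjusted p under 0.05, which is 13.4%, with 866 (5.31%) higher and 1319 (8.08%) lower in drought plants. That count was 4357 without control replicate 2, against 425, 507 and 314 without drought replicate 1, 2 and 3, and 642 without control replicate 1. Of the 9 leaf marker genes, 8 chlorophyll a-b binding proteins and Rubisco activase, 7 passed the filter on low counts. The edgeR test called 1 of these 7, lower in drought plants, whereas DESeq2 called 6 as lower and 1 as higher (25.2% of all genes tested). Without control replicate 2, the chlorophyll a-b binding genes among the 7 had edgeR adjusted p-values of 0.00226 to 0.0111 (26.1% of all genes tested were called). The summed level of the 7 genes was 8021 to 11869 CPM (counts scaled to a common library size) in drought plants and 10062 to 51342 CPM in control plants, the lowest control value being that of control replicate 2. Rubisco activase (ClCG11G006730) ran against that sum, at 1421, 1771 and 2172 CPM in drought plants, against 874, 392 and 1098 CPM in control plants, a log2 fold change of 1.18 that edgeR did not call (adjusted p = 0.132). The 2 markers that did not pass the filter, both chlorophyll a-b binding proteins, had at most 0.414 and 0.127 CPM in drought plants, against 0.389 to 7.43 CPM (ClCG03G006930) and 0 to 5.11 CPM (ClCG10G011800) in control plants. ClCG03G006930 had 0 counts in drought replicate 1, and ClCG10G011800 had 0 counts in drought replicate 3 and in control replicate 2. The phloem protein 2 gene was lower in drought plants, at 29.3 to 51.2 CPM, against 80.9 to 179 CPM in control plants. The part of these differences in the results for the arginine-use genes was not tested, and in leaf RNA fewer cells of a type cannot be told apart from less RNA per cell.

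ADC held most of the transcript of the 5 genes in every plant. Levels of different genes are compared here as FPKM (counts divided by gene length and library total), since longer transcripts yield more fragments. ADC took 71.9, 67.9 and 69.5% of the summed FPKM of the 5 genes in drought replicates 1, 2 and 3, against 65.4, 71.0 and 70.4% in control replicates 1, 2 and 3. The NOS-like gene was next, with 17.3, 22.2 and 19.8% in drought plants, against 22.1, 10.4 and 20.6% in control plants. Arginase took 9.79, 9.08 and 9.87% in drought plants, against 10.3, 14.8 and 7.43% in control plants. ADC stayed between 65.4 and 71.9% in all 6 plants, while control replicate 2 had the lowest NOS-like share and the highest arginase share of any plant. Urease had a small share in both groups, with 0.872, 0.877 and 0.827% in drought plants, against 1.79, 2.63 and 1.47% in control plants. ODC took at most 0.0718% in a drought plant and at most 1.19% in a control plant. The summed FPKM itself was 342, 344 and 347 in drought plants, against 174, 279 and 148 in control plants, so that the drought plants lay close together and above every control plant.

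**Figure D1:**
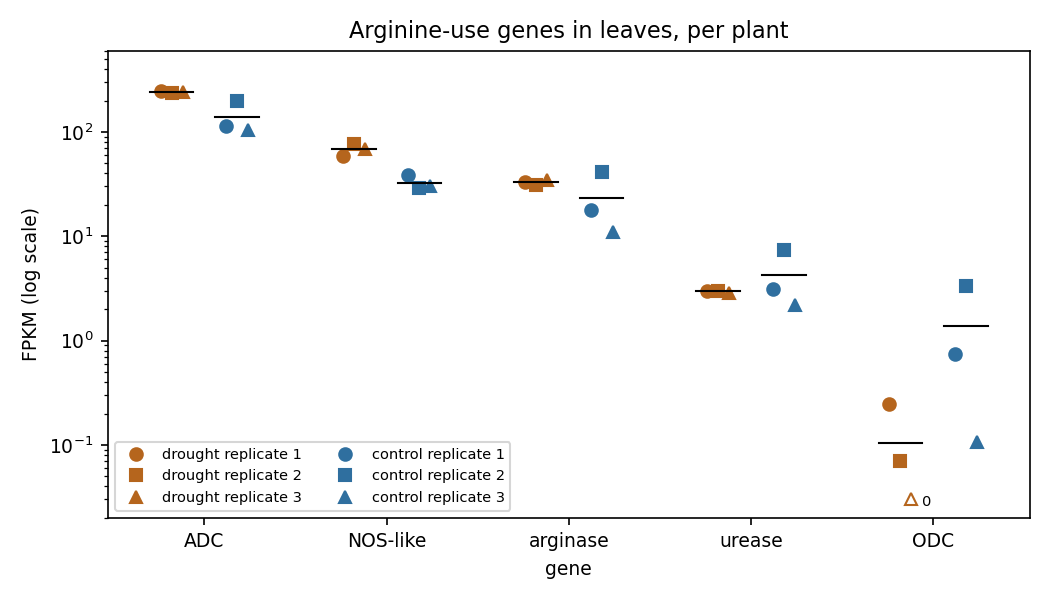
FPKM of the 5 arginine-use genes in each plant, on a log axis, drought plants in brown to the left of control plants in blue, with circle, square and triangle for replicates 1, 2 and 3 and a line at the group mean. ADC is at the top in all 6 plants and ODC at the bottom (the open triangle is a value of 0), and control replicate 2 is the highest control plant for every gene but NOS-like, where it is the lowest.

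The order of mean levels was ADC, NOS-like, arginase, urease and ODC in both groups. In drought plants no neighbours in this order overlapped: the lowest ADC value was 234 FPKM and the highest NOS-like value 76.3 FPKM, the lowest NOS-like value was 59.3 FPKM and the highest arginase value 34.3 FPKM. In control plants NOS-like and arginase overlapped, since control replicate 2 had 29.0 FPKM of NOS-like and 41.2 FPKM of arginase. Urease and ODC overlapped across control plants as well, with 2.17 FPKM as the lowest urease value and 3.31 FPKM as the highest ODC value.

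ADC lies on chromosome 11, positions 4073782 to 4075935, plus strand, in the Charleston Gray assembly that the authors used. Its deposited length of 2154 bases equals the span of the gene model, so the model has no intron. Counts were 11761, 11253 and 10996 in drought replicates 1, 2 and 3, against 5153, 7635 and 4914 in control replicates 1, 2 and 3. As FPKM these were 246, 234 and 241, against 114, 198 and 104. Every drought plant was above every control plant, and the highest control plant was replicate 2. Among the genes with a count, ADC ranked above 97.9 to 98.1% in drought plants and above 95.4 to 97.0% in control plants, so that it was one of the stronger leaf transcripts in either condition. Its level was 487 ± 27.1 CPM in drought plants and 309 ± 54.3 CPM in control plants (SD, n = 3 each; CPM are scaled by TMM, which corrects for differences in library make-up). Its log2 fold change of 0.66 (SE 0.26) missed the threshold of 0.05 in edgeR (adjusted p = 0.133). The call depended on the tool and on 1 library: the adjusted p was 0.0197 with DESeq2 and 0.0218 without control replicate 2, where the log2 fold change was 0.82, and the adjusted p ranged from 0.0197 to 0.346 over the 11 alternatives.

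ODC lies on chromosome 8, positions 26828171 to 26829454, plus strand, and its model of 1284 bases has no intron either. It was at the edge of detection: 7, 2 and 0 counts in drought replicates 1, 2 and 3, against 20, 76 and 3 counts in control replicates 1, 2 and 3. As FPKM these were 0.246, 0.0697 and 0, against 0.742, 3.31 and 0.107. The groups overlapped, since control replicate 3 had fewer counts than drought replicate 1, and 76.8% of the control counts came from control replicate 2. A count of 0 in drought replicate 3 allows a level of up to 0.138 CPM, the value of 3 counts in that library, for counting error only. ODC did not pass the filter on low counts. In the edgeR fit without that filter the log2 fold change was -3.63 (SE 1.41, adjusted p = 0.142), where 10% of all genes were called, and the exact permutation test of the CPM over plants gave p = 0.2, two-sided, where 0.1 is the smallest p that 3 plants against 3 allow. Of the fits that were run, DESeq2 without the filter gave an adjusted p of 0.0370, the lowest of 0.0370 to 0.342 over 11 alternatives. Without control replicate 2 the log2 fold change was -2.23, and without drought replicate 1 it was -5.09.

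The study also measured ODC by quantitative PCR, and the primer pair is shown because it defines the ODC transcript that was targeted. Both primers are written 5′ to 3′ as the study designed them, of 18 and 20 bases, and no value of that assay is used here.
ODC forward primer: ttccggcaaacccaaaga
ODC reverse primer: gaggaggccatgttgagaaa

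The ratio of the decarboxylases was far above 1 in every plant. ADC exceeded ODC per unit of length by 1002 times (95% exact binomial interval 486 to 2492) in drought replicate 1 and by 3354 times (928 to 27698) in drought replicate 2. In drought replicate 3 ODC had no count, and ADC was at least 2185-fold higher, taking 3 counts as the floor for ODC in that library. This floor is a one-sided limit for a count of 0, whereas the intervals of the other plants are two-sided. In control replicates 1, 2 and 3 the ratio was 154 (99.3 to 252), 59.9 (47.8 to 76.1) and 976 (334 to 4736). The lowest drought plant and the highest control plant thus had nearly the same ratio, and their counting intervals overlapped. From group means of FPKM the ratio was 2287 in drought plants and 100.2 in control plants, a log2 difference of 4.51. It was 3.15 without control replicate 2 and 6.09 without drought replicate 1. The mean log2 ratio per plant, with the floor for drought replicate 3, differed by 3.22, and the exact two-sided permutation test gave p = 0.1, the smallest possible, or 0.2 after adjustment over the 4 ratios tested. The denominator was 0 to 7 counts in drought plants, and the size of the difference is only as precise as those counts.

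**Figure D2:**
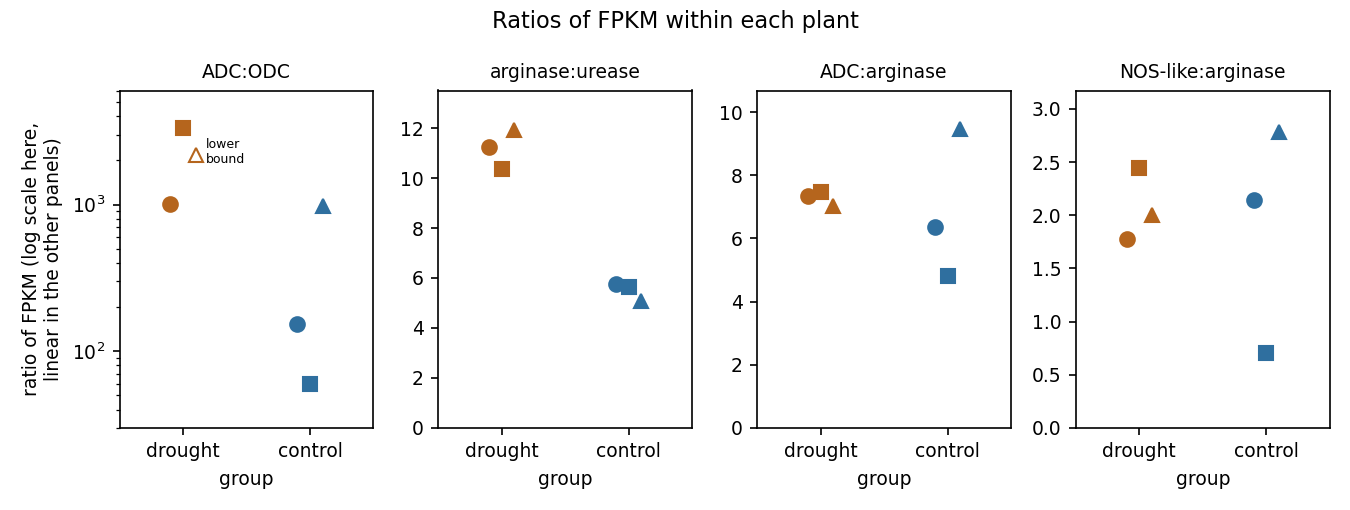
FPKM ratio of 4 gene pairs within each plant, drought plants in brown left of control plants in blue, with circle, square and triangle for replicates 1, 2 and 3; the ADC:ODC axis is logarithmic and the open triangle is a lower bound. The arginase:urease ratio is 10.4 to 11.9 in drought plants and 5.07 to 5.76 in control plants, while the groups overlap for ADC:arginase and NOS-like:arginase.

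Arginase lies on chromosome 6, positions 472864 to 479523, minus strand, over 6660 bases with a deposited length of 1670 bases. The nearest gene with a read count, ClCG06G000470, is 128 bases away on the plus strand, and the library kit does not mark strand. Counts of arginase were 1241, 1168 and 1211 in drought replicates 1, 2 and 3, against 629, 1232 and 402 in control replicates 1, 2 and 3. As FPKM these were 33.5, 31.3 and 34.3, against 17.9, 41.2 and 11.02. The 3 drought plants were nearly alike and lay above control replicates 1 and 3 but below control replicate 2. The level was 51.9 ± 4.24 CPM in drought plants and 38.8 ± 19.1 CPM in control plants (SD, n = 3 each), with a log2 fold change of 0.42 (SE 0.35) and an edgeR adjusted p of 0.451. This value depended on which control plants were included: it was 0.88 without control replicate 2, with an adjusted p of 0.0281, and 0.14 without control replicate 3, with an adjusted p of 0.771, these being the ends of the range over the 11 alternatives.

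Urease lies on chromosome 11, positions 27054415 to 27080559, plus strand, and is the longest of the 5 gene models, with 26145 bases of span and a deposited length of 5349 bases. Its counts were 354, 361 and 325 in drought replicates 1, 2 and 3, against 350, 702 and 254 in control replicates 1, 2 and 3. As FPKM these were 2.98, 3.02 and 2.87, against 3.12, 7.33 and 2.17. The drought plants lay within the range of the control plants, whose replicate 2 was again the highest. The level was 14.9 ± 0.216 CPM in drought plants and 22.4 ± 10.4 CPM in control plants (SD, n = 3 each), with a log2 fold change of -0.59 (SE 0.34) and an edgeR adjusted p of 0.269 (0.109 to 0.622 over the 11 alternatives). Without control replicate 2 the log2 fold change was -0.15.

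The transcript ratio of arginase, whose enzyme releases urea, to urease, whose enzyme consumes it, separated the groups, although neither gene did so alone. How many other gene pairs would do so was not counted. Among single genes, 19.9% of all genes tested had every drought plant above every control plant, and 18.5% had every drought plant below. The FPKM ratio of arginase to urease was 11.2, 10.4 and 11.9 in drought replicates 1, 2 and 3, against 5.76, 5.62 and 5.07 in control replicates 1, 2 and 3. All 3 drought plants were well above all 3 control plants, and control replicate 2, which was the highest control plant for both genes, had a ratio between those of the other control plants. The mean was 11.2 ± 0.787 in drought plants and 5.48 ± 0.364 in control plants (SD, n = 3 each), a log2 difference of 1.03, or 2.04-fold between geometric means. The exact two-sided permutation test gave p = 0.1, the smallest that 3 plants against 3 allow, and 0.2 after adjustment over the 4 ratios tested. Leaving out each plant in turn left the log2 difference between 0.97 and 1.08. A ratio within 1 library does not depend on how libraries are scaled to each other.

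The ratios of ADC and of NOS-like to arginase did not separate the groups, unlike arginase:urease and, by a narrow margin, ADC:ODC. ADC to arginase was 7.35, 7.47 and 7.04 in drought plants, against 6.35, 4.80 and 9.48 in control plants, with a log2 difference of 0.14 (exact permutation p = 0.7, adjusted 0.9). NOS-like to arginase was 1.77, 2.44 and 2.003 in drought plants, against 2.14, 0.704 and 2.78 in control plants, with a log2 difference of 0.35 (exact permutation p = 0.9, adjusted 0.9). In both cases the control plants spanned the drought plants, and without control replicate 2 the log2 difference changed sign, to -0.091 and -0.25.

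NOS-like lies on chromosome 1, positions 5240548 to 5248670, plus strand, over 8123 bases with a deposited length of 1938 bases. Its counts were 2551, 3306 and 2815 in drought replicates 1, 2 and 3, against 1565, 1006 and 1297 in control replicates 1, 2 and 3. As FPKM these were 59.3, 76.3 and 68.7, against 38.5, 29.0 and 30.6. Every drought plant was above every control plant, and unlike the other 4 genes NOS-like was lowest, not highest, in control replicate 2 among the control plants. The level was 124 ± 13.6 CPM in drought plants and 68.8 ± 18.1 CPM in control plants (SD, n = 3 each). The log2 fold change was 0.85 (SE 0.26), with an edgeR adjusted p of 0.0699, the lowest of the tested members but not past 0.05. It passed with DESeq2 (adjusted p = 0.0227), with library totals in place of TMM (0.0331) and without control replicate 2 (0.0385, at a log2 fold change of 0.66), out of a range of 0.0227 to 0.209 over the 11 alternatives.

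As a group, 4 of the 5 genes could be tested with the filter, and none was called by edgeR at an adjusted p under 0.05, beside 13.4% of all genes tested. ADC and NOS-like had an unadjusted p under 0.05 (31.5% of all genes tested), and DESeq2 called these 2 genes (25.2% of all genes tested). Without control replicate 2 edgeR called 3 of them as higher in drought plants, ADC, NOS-like and arginase, beside 11.3% of all genes tested in that direction and 26.1% in either. ADC and NOS-like were the 2 genes with every drought plant above every control plant, which held for 19.9% of all genes tested. The median log2 fold change of the 4 genes was 0.54, beside -0.03 over all genes tested.

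**Figure D3:**
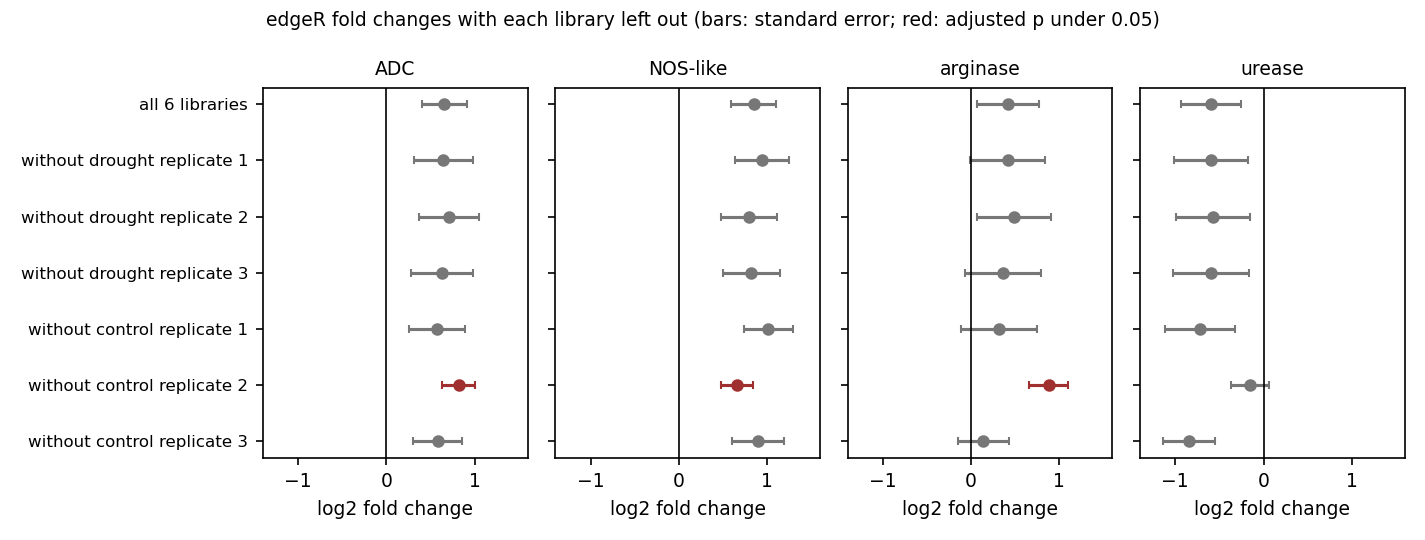
edgeR log2 fold change (drought over control) of the 4 tested genes with all 6 libraries and with each library left out, bars showing the standard error and red marking an adjusted p under 0.05. ADC, NOS-like and arginase are red only without control replicate 2, at 0.82, 0.66 and 0.88, and urease is closest to 0 in that fit, at -0.15.

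The spread between plants was itself uneven. The SD of log2 CPM was 0.0817 in drought plants and 0.243 in control plants for ADC, 0.119 in drought plants and 0.703 in control plants for arginase, and 0.0209 in drought plants and 0.638 in control plants for urease. For NOS-like it was 0.164 in drought plants and 0.406 in control plants. All 4 genes thus varied less among drought plants, which was common in these libraries, since 77.8% of all genes tested had a lower SD of log2 CPM there. The FPKM, which are scaled by library totals and not by TMM, had a coefficient of variation of 2.58% in drought plants and 37.1% in control plants for ADC, and of 12.5% in drought plants and 15.5% in control plants for NOS-like, so the size of this contrast depends on the scaling. Relative to the mean of the other control plants, control replicate 2 was higher by 0.42 for ADC, 1.11 for arginase and 1.05 for urease on the log2 scale, and it differed by -0.68 for NOS-like. Control replicates 1 and 3 were at 277.4 and 277.1 CPM for ADC and at 84.2 and 73.1 CPM for NOS-like. The wider control SD of log2 CPM for ADC and NOS-like thus came mostly from control replicate 2. For arginase, control replicates 1 and 3 were at 33.9 and 22.7 CPM, and for urease at 18.8 and 14.3 CPM.

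Likeness of pattern was measured as the root mean square difference of log2 CPM, centred on each gene's mean, over the 6 libraries, where 0 means an identical pattern. Among the 5 genes ADC and arginase were the most alike, at 0.293, and ADC and NOS-like came next, at 0.407. Arginase and urease were at 0.518, and all pairs with ODC lay between 1.39 and 2.22. Arginase and urease shared a high value in control replicate 2 and differed in the direction of their fold changes. Over all genes tested, the nearest to ADC were ClCG00G002260, ClCG04G005800 and ClCG11G013050, at 0.0504 to 0.0604. The nearest to arginase were ClCG04G002290, ClCG06G013710 and ClCG03G008920, at 0.0292 to 0.0693, and the nearest to urease were ClCG02G002930, ClCG07G014200 and ClCG05G005040, at 0.0463 to 0.0563. ClCG02G001130, ClCG06G015030 and ClCG07G012280 were the nearest to NOS-like, at 0.0168 to 0.0769, and ClCG03G007720, ClCG00G005250 and ClCG11G009920 the nearest to ODC, at 0.376 to 0.472. These genes are given by ID only. Within the pathway lists described next, allantoinase was nearest to ADC (0.175) and an argininosuccinate lyase to arginase (0.279). The gene labelled ADC paralog was nearest to NOS-like (0.283) and ornithine cyclodeaminase to ODC (0.862). Among the listed genes, reference genes of quantitative PCR included, YLS8 was nearest to urease (0.187).

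The neighbouring steps were counted in 4 lists with 21 genes, of which all were tested. The polyamine, urea and nitric oxide lists were taken from genes that the study had called on these samples. Their counts and median fold changes, here and below, are therefore not independent evidence. Such counts and medians cannot be weighed against the share or median over all genes tested. In all, 9 of the 21 genes were called, beside 13.4% of all genes tested, and the count was 4, 4 and 3 without drought replicates 1, 2 and 3, and 4 and 16 without control replicates 1 and 2, the last beside 26.1% of all genes tested. The 7 genes added without control replicate 2 were an amine oxidase (ClCG07G010820), the polyamine oxidase, nitrate reductase, the other argininosuccinate synthases (ClCG06G017780 and ClCG03G003660), an argininosuccinate lyase (ClCG08G011660) and ornithine δ-aminotransferase. The ADC paralog, spermidine synthase and allantoinase each lost their call when any library but control replicate 2 was left out.

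In the polyamine list 4 of 7 genes were higher in drought plants (5.31% of all genes tested), 1 was lower (8.08% of all genes tested) and 2 did not pass, with a median log2 fold change of 0.96 (-0.03 over all genes tested). ClCG06G014050, labelled the ADC paralog here, is annotated as a putative arginine decarboxylase, and its sequence was not compared with that of ADC. It had 20.5, 21.7 and 23.2 CPM in drought plants, against 13.9, 11.1 and 8.63 CPM in control plants. All drought plants were above all control plants (19.9% of all genes tested). The log2 fold change was 0.96 (SE 0.24, edgeR adjusted p = 0.0453). Its call was narrow: the replicate block, which takes the replicate numbers as pairs, gave an adjusted p of 0.0605, within 0.00526 to 0.173 over the 11 alternatives. ADC stood above this paralog in FPKM by 21.8, 18.8 and 19.5 times in drought plants, against 17.8, 29.99 and 28.8 times in control plants, and reads that both genes share could not be told apart.

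Spermidine synthase (ClCG05G025220), which adds an aminopropyl group to putrescine, had 416, 470.2 and 451 CPM in drought plants, against 221, 247 and 204 CPM in control plants. All drought plants were above all control plants (19.9% of all genes tested). The log2 fold change was 0.99 (SE 0.24, edgeR adjusted p = 0.0371, 0.0741 with the replicate block and 2.27e-06 to 0.156 over the 11 alternatives). Its FPKM was 1.25, 1.56 and 1.35 times that of ADC in drought plants, against 1.20, 1.001 and 1.11 times in control plants. The genes for the first step and for spermidine formation thus had levels of similar size. This ratio did not overlap between the groups, with a log2 difference of 0.33 that was not tested. Amine oxidases are a class that includes enzymes breaking down diamines and polyamines. Of the amine oxidase genes, ClCG01G003690 (log2 fold change 1.72, SE 0.30, edgeR adjusted p = 0.0165) and ClCG02G012080 (1.45, SE 0.38, adjusted p = 0.0494) were higher in drought plants. Each lost its call without any 1 of the drought libraries (replicates 1, 2 and 3) and without control replicate 1, at adjusted p-values of 0.0557 to 0.0686 for ClCG01G003690 and 0.102 to 0.154 for ClCG02G012080, and the second was also lost without the filter (0.0504) and with DESeq2 size factors in edgeR (0.0529). Another amine oxidase, ClCG06G006180, was lower in drought plants, at 19.1, 19.8 and 24.8 CPM, against 65.1, 68.3 and 92.0 CPM in control plants (log2 fold change -1.82, SE 0.22, edgeR adjusted p = 0.00650), and was called in all 11 alternatives. A putative polyamine oxidase, ClCG09G003930, stood at -1.89 (edgeR adjusted p = 0.0865, within 0.0120 to 0.244 over the alternatives). It passed with DESeq2 (adjusted p = 0.0137), with the replicate block in edgeR (0.0147) and without control replicate 2 in edgeR (0.0120).

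In the urea and ureide list 2 of 4 genes were higher in drought plants, 1 was lower and 1 did not pass, beside 5.31% higher and 8.08% lower among all genes tested, and the median log2 fold change was -0.85, opposite in sign to the majority of its calls. UreG (ClCG03G007040), an accessory protein that helps to load nickel into urease, had 168, 148 and 144 CPM in drought plants, against 35.0, 55.0 and 41.3 CPM in control plants. Its log2 fold change was 1.81 (SE 0.24, edgeR adjusted p = 0.00801), and it was called in all 11 alternatives. The FPKM ratio of ureG to urease was 47.3, 42.7 and 40.7 in drought plants, against 7.85, 6.82 and 12.2 in control plants, with no overlap. UreG alone already had every drought plant above every control plant, which held for 19.9% of all genes tested, and this ratio was not tested. The urea transporter gene (ClCG10G000930), whose protein carries urea across membranes, had 4.76, 7.29 and 8.78 CPM in drought plants, against 65.5, 92.6 and 64.9 CPM in control plants. This was the largest fold among the listed genes that were called, with a log2 fold change of -3.42 (SE 0.30, edgeR adjusted p = 0.00369), and it was called in all 11 alternatives. Allantoinase (ClCG03G005950), which opens the ring of allantoin in purine breakdown, was higher in drought plants, with a log2 fold change of 0.82 (SE 0.20, edgeR adjusted p = 0.0385, 0.00388 to 0.152 over the alternatives). Urease thus stood without a call between an accessory gene that was higher and a transporter gene that was lower in drought plants.

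**Figure D4:**
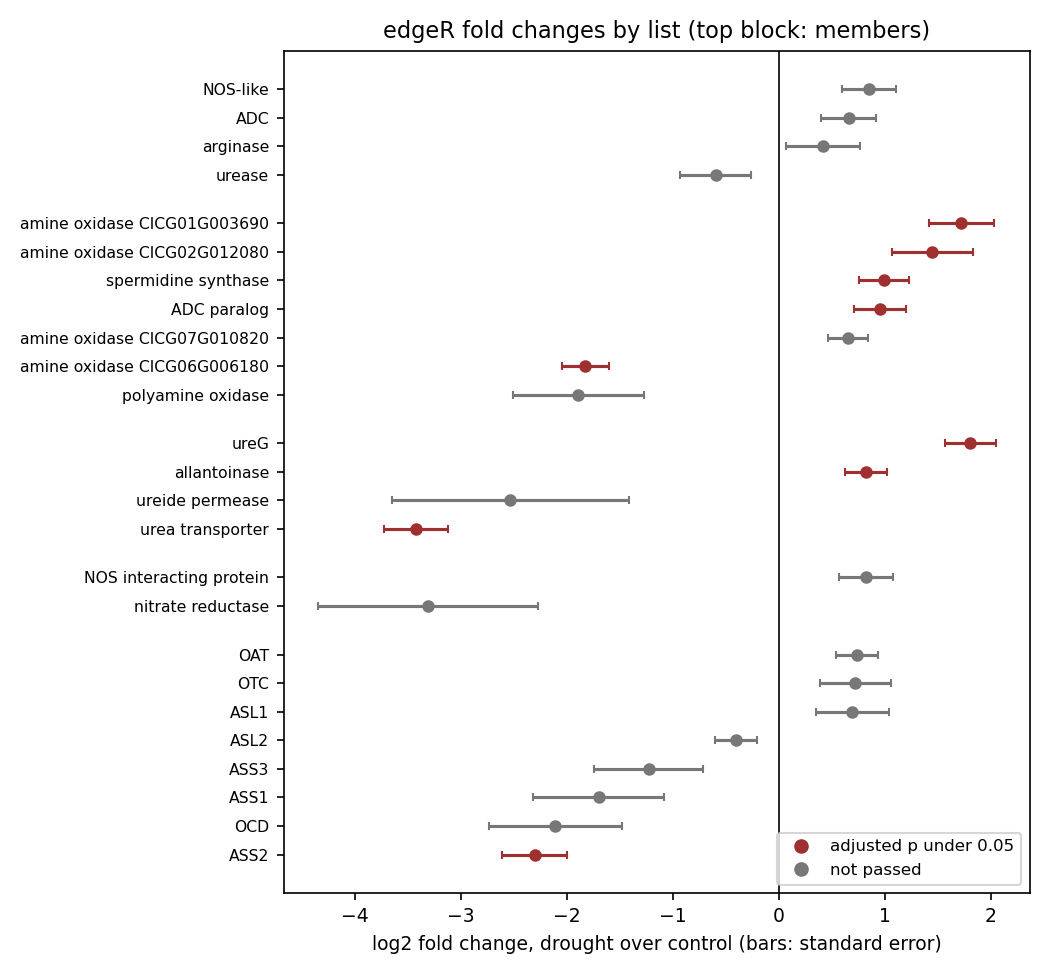
edgeR log2 fold change (drought over control) with standard error for the 4 tested members (top block) and, below, the polyamine, urea and ureide, nitric oxide, and arginine and ornithine supply lists; red points passed an adjusted p of 0.05 (ASS is argininosuccinate synthase, ASL is argininosuccinate lyase, OTC is ornithine carbamoyltransferase, OAT is ornithine δ-aminotransferase, OCD is ornithine cyclodeaminase). The members lie between -0.59 and 0.85 with none in red, while ureG at 1.81 and the urea transporter at -3.42 lie outside that range.

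In the nitric oxide list neither of 2 genes was called by edgeR, although both had an unadjusted p under 0.05 and DESeq2 called 1 as higher and 1 as lower. A gene annotated as a nitric oxide synthase interacting protein (ClCG09G021600) had a log2 fold change of 0.82 (SE 0.26, edgeR adjusted p = 0.0757). Nitrate reductase (ClCG03G009280), an established source of nitric oxide in plants, had 154, 45.4 and 469.6 CPM in drought plants, against 1353, 717 and 4565 CPM in control plants. All drought plants were below all control plants, which held for 18.5% of all genes tested. The spread within each group was wide, and the log2 fold change of -3.31 (SE 1.04) had an edgeR adjusted p of 0.0774. With the replicate block the adjusted p was 0.00711, within 0.00108 to 0.224 over the 11 alternatives.

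In the list of arginine and ornithine supply 1 of 8 genes was called, as lower in drought plants (8.08% of all genes tested), and the median log2 fold change was -0.82. That gene was an argininosuccinate synthase, ClCG03G003670, which joins citrulline and aspartate on the way to arginine, at 9.89, 6.07 and 6.66 CPM in drought plants, against 41.8, 26.6 and 43.3 CPM in control plants (log2 fold change -2.30, SE 0.30, edgeR adjusted p = 0.00800). All drought plants were below all control plants (18.5% of all genes tested). Of the 11 alternatives this gene missed the threshold in 1, without drought replicate 3, at an edgeR adjusted p of 0.0507. Of the genes that did not pass, the argininosuccinate synthase gene with the highest level, ClCG06G017780, had 323, 239 and 248 CPM in drought plants, against 1362, 223 and 1039 CPM in control plants. Its log2 fold change was -1.70 (edgeR adjusted p = 0.112, with 0.0202 in DESeq2 and 0.00207 without control replicate 2). The other argininosuccinate synthase, ClCG03G003660, stood at -1.23 (edgeR adjusted p = 0.151, with 0.0404 without control replicate 2). Ornithine carbamoyltransferase, which makes citrulline from ornithine, had a log2 fold change of 0.72 (edgeR adjusted p = 0.190). Ornithine δ-aminotransferase, which links ornithine to proline and glutamate, had 0.73 (edgeR adjusted p = 0.0520). The gene annotated as ornithine cyclodeaminase, ClCG05G008460, stood at -2.11 (edgeR adjusted p = 0.0670, within 0.00609 to 0.216 over the alternatives). It passed with DESeq2 (adjusted p = 0.00609), with the replicate block in edgeR (0.0245) and without control replicate 3 in edgeR (0.0231).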

How the data were processed

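Leaf RNA of 3 drought and 3 control plants was sequenced, 1 library for each plant, and groups were taken from the sample labels. The authors deposited read counts per gene (whole numbers, not normalized) from reads mapped to the Charleston Gray assembly. TopHat with HTSeq is given in the paper, and fastp, featureCounts and HISAT2 2.1.0 in the submitters' processing notes. The deposited FPKM values of the authors equal the count divided by gene length and library total for all 5 genes studied, and gene lengths and positions are other values deposited in the same table. The deposited fold changes, p-values and normalized counts of the authors were not used. Drought columns carry another prefix than the labels, with the same numbers.

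Counts were tested with edgeR 4.0.16 in R 4.3.3 (quasi-likelihood, TMM, filterByExpr at 10 counts and 15 counts in total, Benjamini-Hochberg over all genes tested, threshold 0.05, two-sided), after the script had been tested on simulated data. DESeq2 1.42.0, library totals, DESeq2 size factors in edgeR, no filter, the replicate block and leaving out each library were the alternatives, and, for ratios, TMM-scaled counts per kilobase, a pseudocount of 0.1 FPKM and libraries with an ODC count of 3 or less left out. log2 CPM used a prior count of 2. Ratios of FPKM were compared by exact permutation tests. At these depths 3 counts correspond to 0.121 to 0.169 CPM. Intervals and floors cover counting error only. Libraries with the same replicate number had correlations of 0.148, 0.430 and 0.130 of their deviations from the group means. All were above 0.1, and the block took the numbers as pairs on that ground. Libraries with unlike numbers had correlations of -0.385 to 0.303. The highest of these, drought replicate 1 with control replicate 3, exceeded the values of same-number replicates 1 and 3. The correlations thus do not single out the numbers as pairs, and the block is an alternative setting only. The sources used here name no shared block, and the plants are described as independent.

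The 5 genes, the lists and the tests were chosen with earlier results of these data known. Named genes were the 5 genes, the genes of the lists, and, for each of the 5, the 3 tested genes nearest in pattern with the nearest described gene.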

Additional observations from a re-analysis of the deposited data

How the results depend on the processing

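The count of genes called was 4120 with DESeq2 and 314 to 4357 when 1 library was left out, and with library totals 52.1% of the calls were higher in drought plants, against 39.6% with TMM, at a shift of the median of all genes by 0.16 (log2). DESeq2 called 2 of the 5 genes, library totals 1, and fits without 1 library 0 to 3, the 3 being without control replicate 2. Of the listed genes DESeq2 called 17, and fits without 1 library 3 to 16. With DESeq2, ADC (log2 fold change 0.64), NOS-like (0.83) and ODC without the filter (-3.72) passed the threshold, and NOS-like passed with library totals (1.06). Leaving out 1 library gave 0.58 to 0.82 for ADC, 0.66 to 1.02 for NOS-like, 0.14 to 0.88 for arginase, -0.84 to -0.15 for urease and -5.09 to -2.23 for ODC, with no change of sign. The log2 differences of ADC:arginase and NOS-like:arginase changed sign without control replicate 2, at -0.091 (range without 1 plant -0.091 to 0.40) and -0.25 (-0.25 to 0.74). The cause of these changes was not tested. The replicate block changed no call of the 5 genes, with log2 fold changes of 0.67 for ADC, 0.88 for NOS-like, 0.53 for arginase, -0.50 for urease and -3.62 for ODC, and called 10 of the 21 listed genes. For ADC:ODC the log2 difference of 4.51 was 4.36 with TMM-scaled counts per kilobase and 3.65 with the pseudocount. Leaving out libraries with an ODC count of 3 or less selects on the measured value and leaves 1 drought plant, so it is not used. Depth limits ODC, with 9 counts in drought plants and 99 in control plants in all, 23 of those 99 being outside control replicate 2, so that this plant limits it as well.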
